A study of Mus musculus with 18 samples.

Results

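Lin28b, Hmga2, Hmga1, Igf2bp1, Igf2bp2 and Igf2bp3 were chosen by name, as genes known for their activity in fetal and newborn tissue. Earlier results of these data were known when they were chosen. They are 6 of the 17178 genes with a named probe on the arrays. RNA from the whole bone marrow of C3H females was hybridised to 18 arrays of 1 colour, 3 for each of 6 groups. The groups were 8-week-old mice, unirradiated or taken at 6 h or 24 h following a 2 Gy gamma dose, and 1-week-old mice, unirradiated or taken at the same times following the same dose. The labels name no transgene, deletion or drug in any group, and name no sorting of cells, so each value is an average over all cells in the marrow sample. The comparisons below ask how these genes differ between 8-week and 1-week marrow and how they respond to irradiation at each age.

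Lin28b is an RNA-binding protein that blocks the maturation of let-7 microRNAs by binding their precursors. Mature let-7 in turn represses mRNAs that carry sites for its seed, among them Hmga2, Lin28b itself and the Igf2bp genes, so high Lin28b and low let-7 go together with high levels of these mRNAs. In mouse blood formation Lin28b and Hmga2 are known from fetal stem cells and decline after birth, and Lin28b and Igf2bp3 are known for promoting the fetal type of B-cell production. The Igf2bp proteins bind, stabilise and localise mRNAs, Igf2 among them. Hmga1 and Hmga2 are small chromatin proteins that bind the minor groove of AT-rich DNA through AT-hooks.

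The let-7 sequences are shown because they are what Lin28b acts on and what is known to repress the other genes; let-7 levels were not analysed here. RefSeq (GRCm38.p6) lists 11 mature let-7 family names for the arm that carries the family seed, and 10 of them share the seed GAGGUAG at bases 2 to 8, in capitals here for 7 of the names, while let-7j has GAGGUAU.
mmu-let-7a-5p: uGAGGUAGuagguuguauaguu
mmu-let-7b-5p: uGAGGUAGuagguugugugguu
mmu-let-7d-5p: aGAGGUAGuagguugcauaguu
mmu-let-7e-5p: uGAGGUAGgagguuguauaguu
mmu-let-7g-5p: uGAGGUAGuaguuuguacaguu
mmu-miR-98-5p: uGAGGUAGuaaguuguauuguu
mmu-let-7j: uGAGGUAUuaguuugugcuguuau

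Of 1679 mature mouse miRNA names in the table, 11 hold the seed GAGGUAG, the other being miR-1961. Lin28 proteins are known to bind a GGAG in the stretch between the arms of let-7 precursors, and 9 of the 12 let-7 hairpins with both arms annotated hold those letters there. The hairpin of let-7g (chr9:106178840-106178927, plus strand) has it, in capitals, and that of let-7b (chr15:85707319-85707403, plus strand) does not, as is also so for let-7c-2 and miR-98.
Mirlet7g: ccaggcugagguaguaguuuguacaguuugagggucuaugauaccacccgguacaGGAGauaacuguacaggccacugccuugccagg
Mirlet7b: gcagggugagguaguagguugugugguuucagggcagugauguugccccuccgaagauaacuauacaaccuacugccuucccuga

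Promoter windows of 300 bases (250 before to 50 after an annotated start, RefSeq, GRCm38.p6) were matched for 5 of the 6 genes. The windows of Igf2bp3 and Lin28b are shown because these genes had the largest age differences among the 6, and the E-box CACGTG, the letters bound by Myc and related factors, is in capitals. The search covered both strands, which are the same for this palindrome.
Igf2bp3: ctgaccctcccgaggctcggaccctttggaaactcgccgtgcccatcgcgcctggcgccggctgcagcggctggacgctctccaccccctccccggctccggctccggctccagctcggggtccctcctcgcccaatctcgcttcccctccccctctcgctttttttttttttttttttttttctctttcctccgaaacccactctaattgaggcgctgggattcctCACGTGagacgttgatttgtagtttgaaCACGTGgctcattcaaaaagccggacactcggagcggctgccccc
Lin28b: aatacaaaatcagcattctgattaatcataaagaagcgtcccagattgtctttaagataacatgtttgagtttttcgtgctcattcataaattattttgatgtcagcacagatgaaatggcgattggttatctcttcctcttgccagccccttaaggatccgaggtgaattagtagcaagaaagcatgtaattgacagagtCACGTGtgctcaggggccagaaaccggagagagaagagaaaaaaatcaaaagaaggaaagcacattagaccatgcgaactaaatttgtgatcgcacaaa

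The Igf2bp3 window (chr6:49214905-49215204, minus strand) holds CACGTG 2 times, starting 23 bases before the start and at base 6 after it, and the Lin28b window (chr10:45470152-45470451, minus strand) holds it 1 time, starting 49 bases before the start. Those letters occur in 7.15% of 32851 promoter windows, and the windows of Hmga2 (chr10:120476420-120476719, minus strand), Igf2bp2 (chr16:22163250-22163549, minus strand) and Hmga1 (chr17:27556324-27556623, plus strand) do not hold them. G and C made up 60.3% of the Igf2bp3 window and 39.0% of the Lin28b window, against a median of 52.7% over all windows. The windows of Igf2bp3 and Lin28b lie inside the annotated genes, which reach to chr6:49215469 and chr10:45486314. Each of these windows therefore surrounds an annotated start within the gene and not the outermost one. None of the CACGTG matches shows that a factor binds there.

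Levels below are log2 signals of a gene's brightest probe relative to the 75th percentile of all probes on the same array, so 0 lies at that percentile, and levels of different genes are not compared because each probe has its own response. Each array had 21020 to 25566 of 41174 probes well above background (51.05 to 62.09%), and a gene was tested if 1 or more groups had it well above background on each of their 3 arrays, which 11884 genes met. Lin28b, Igf2bp2, Igf2bp3, Hmga1 and Hmga2 were tested, and Igf2bp1 was too dim. The 1-week control replicate 2 stood apart in tissue markers, with a mean level of 5.42 for 14 skeletal muscle markers against -1.48 and -0.48 in the other 1-week controls, and 3.20 for 9 cartilage markers against -2.46 and -1.80. Leaving this array out changed no call of the 5 tested genes, and their values without it are given beside those that use it. Counts over gene and marker lists without it are given only in part. They can differ also in comparisons that do not use this array, because all arrays share 1 estimate of the spread. P-values come from limma, adjusted over the 11884 genes, and the labels speak of separate samples without naming litters or cages.

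Lin28b was far lower in 8-week than in 1-week marrow, and so were Igf2bp3 and Hmga2, whereas Hmga1 was moderately lower and Igf2bp2 did not pass the test. Of the 5 tested genes, 4 were lower and 0 were higher in unirradiated 8-week marrow, where 37.5% of all tested genes were called lower, 27.4% higher and 64.9% in either direction. The groups did not overlap for the same 4 genes, as for 69.9% of all tested genes. The median difference over the 5 genes was -2.11, against -0.09 over all tested genes. Because the genes were chosen with earlier results of these data known, these contrasts with all tested genes are only a description. Lin28b and Igf2bp3 passed the detection filter through 1-week groups alone, which favours a lower level at 8 weeks, so their age calls are not independent of the filter. Of the 3 genes measured at both ages (Hmga1, Hmga2 and Igf2bp2), 2 were lower and 0 were higher.

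The Lin28b signal was -6.75, -6.96 and -6.84 on the 3 unirradiated 8-week arrays, none of them well above background, against -2.07, -2.43 and -2.03 on the 3 unirradiated 1-week arrays, all well above background. The groups did not overlap, and every 1-week array lay far above every 8-week array. Because the 8-week signal was below background, the difference is a lower bound, and Lin28b was at least 5.38-fold lower at 8 weeks (adjusted p = 1.783e-10). Bounds of this kind set the mean of the brighter group against the lowest signal that counted as well above background on each array of the dimmer group. The adjusted p beside a bound, here and below, is that of the fitted difference, and the bound itself was not tested. Leaving out 1-week control replicate 2 moved the fitted difference to -4.80, against -4.67 ± 0.25 (SE) with all arrays. A second probe for Lin28b was not well above background on any of the 18 arrays.

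Lin28b stayed lower at 8 weeks when irradiated marrows were compared with each other. At 6 h the mean was -6.33 ± 0.18 (SD, n = 3) in 8-week marrow and -3.92 ± 0.16 in 1-week marrow, with 0 of 3 and 2 of 3 arrays well above background, which gives at least 1.12-fold lower (adjusted p = 3.065e-07). At 24 h the means were -6.54 ± 0.13 at 8 weeks and -3.79 ± 0.18 at 1 week, at least 1.46-fold lower (adjusted p = 7.277e-08). These bounds are small because the 1-week signal itself was close to background after irradiation.

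Igf2bp3 gave the largest age bound of the 6 genes, as its 1-week signal was bright and its 8-week signal was not detected. It was -5.14, -5.89 and -4.87 on the unirradiated 8-week arrays, none well above background, against 0.25, 0.08 and 0.28 on the unirradiated 1-week arrays. That is at least 28.0-fold lower at 8 weeks (adjusted p = 3.138e-11), with no overlap, and the fitted difference was -5.57 without 1-week control replicate 2, against -5.51 with it. The gap was at least 14.5-fold among marrows taken 6 h after irradiation (adjusted p = 4.013e-11) and at least 17.1-fold among those taken at 24 h (adjusted p = 1.481e-10). Over the 3 conditions, its chosen probe was well above background on 0 of 9 8-week arrays and on 9 of 9 1-week arrays.

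The 3 Igf2bp3 probes could be read separately, and they gave the same order of ages. The probe A_52_P508974 averaged -5.62 ± 1.19 in unirradiated 8-week marrow and 0.18 ± 0.27 in unirradiated 1-week marrow (SD, n = 3 each), at least 27.6-fold lower. The dimmest, A_52_P271232, averaged -6.63 ± 0.07 at 8 weeks and -1.61 ± 0.07 at 1 week, at least 7.97-fold lower. On 1 array, 8-week 6 h replicate 3, this probe was well above background at -2.66, while the other Igf2bp3 probes were not well above background on it.

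Igf2bp2, the family member known as widely expressed in adult tissue, showed no age difference that passed the test. It was -3.83, -3.89 and -3.43 in unirradiated 8-week marrow, against -3.20, -3.02 and -3.79 in unirradiated 1-week marrow, and the groups overlapped. The difference was -0.38 ± 0.30 (SE, adjusted p = 0.2851), and -0.22 without 1-week control replicate 2. It was 0.20 ± 0.30 at 6 h (adjusted p = 0.5722) and 0.69 ± 0.30 at 24 h (adjusted p = 0.05841), where the sign is opposite to that in controls. The probe was well above background on 16 of 18 arrays, but a difference as small as the -0.59 of Hmga1 would lie within 2 of its standard errors.

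Igf2bp1, whose protein is known for binding and localising beta-actin mRNA, was at the edge of detection. Its brightest probe was well above background on 2 of 18 arrays, both from 1-week marrow at 6 h. There it read -3.64, -4.40 and -3.24, against -4.53, -5.39 and -4.50 in 1-week controls, none of which were well above background, so it was at least 1.52-fold higher at 6 h. In 8-week marrow at 6 h it read -6.36, -6.44 and -6.06, at least 1.25-fold lower than in 1-week marrow at 6 h. Igf2bp1 did not pass the detection filter and has no call among the 11884 genes. In limma with no filter on dim probes, the 1-week difference at 6 h was 1.05 (adjusted p = 0.04998) and the age difference at 6 h was -2.53 (adjusted p = 6.134e-05). In the same fit the age difference was -1.22 in unirradiated marrow (adjusted p = 0.01784) and -1.37 at 24 h (adjusted p = 0.009882), where no array of either age was well above background. The other 2 Igf2bp1 probes were not well above background on any array.

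Hmga2 was measured on every array, so its age difference has a size and not only a bound. It was -3.04, -3.17 and -3.04 in unirradiated 8-week marrow, against -0.87, -1.12 and -0.94 in unirradiated 1-week marrow. This was 4.31-fold lower at 8 weeks (log2 difference -2.11 ± 0.16 SE, adjusted p = 8.475e-09), and -2.18 without 1-week control replicate 2. Over 12 alternative ways of processing, this unirradiated difference ran from -2.17 to -1.44, so its size depends on the processing. The difference was -1.12 ± 0.16 at 6 h (adjusted p = 8.707e-06) and -1.39 ± 0.16 at 24 h (adjusted p = 8.289e-07), and in none of the 3 comparisons did the groups overlap. A second Hmga2 probe was well above background on 3 of 18 arrays, 2 of them 1-week controls and the other 8-week 6 h replicate 3. When both probes are averaged, the age difference at 6 h was -0.26 (adjusted p = 0.5655) and that at 24 h was -0.79 (adjusted p = 0.0776).

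Hmga1 was bright on every array and showed a smaller age difference. It was 6.78, 6.95 and 6.97 in unirradiated 8-week marrow, against 7.52, 7.40 and 7.55 in unirradiated 1-week marrow, 1.51-fold lower at 8 weeks (log2 difference -0.59 ± 0.07 SE, adjusted p = 2.235e-06), and -0.64 without 1-week control replicate 2. The difference was -0.44 ± 0.07 at 6 h (adjusted p = 5.206e-05). At 24 h the means were 7.01 ± 0.10 at 8 weeks and 7.02 ± 0.05 at 1 week (SD, n = 3 each), and no difference was called (adjusted p = 0.9749). RefSeq also lists a second gene, Hmga1b, and whether the single Hmga1 probe separates the 2 genes was not tested.

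**Figure D1:**
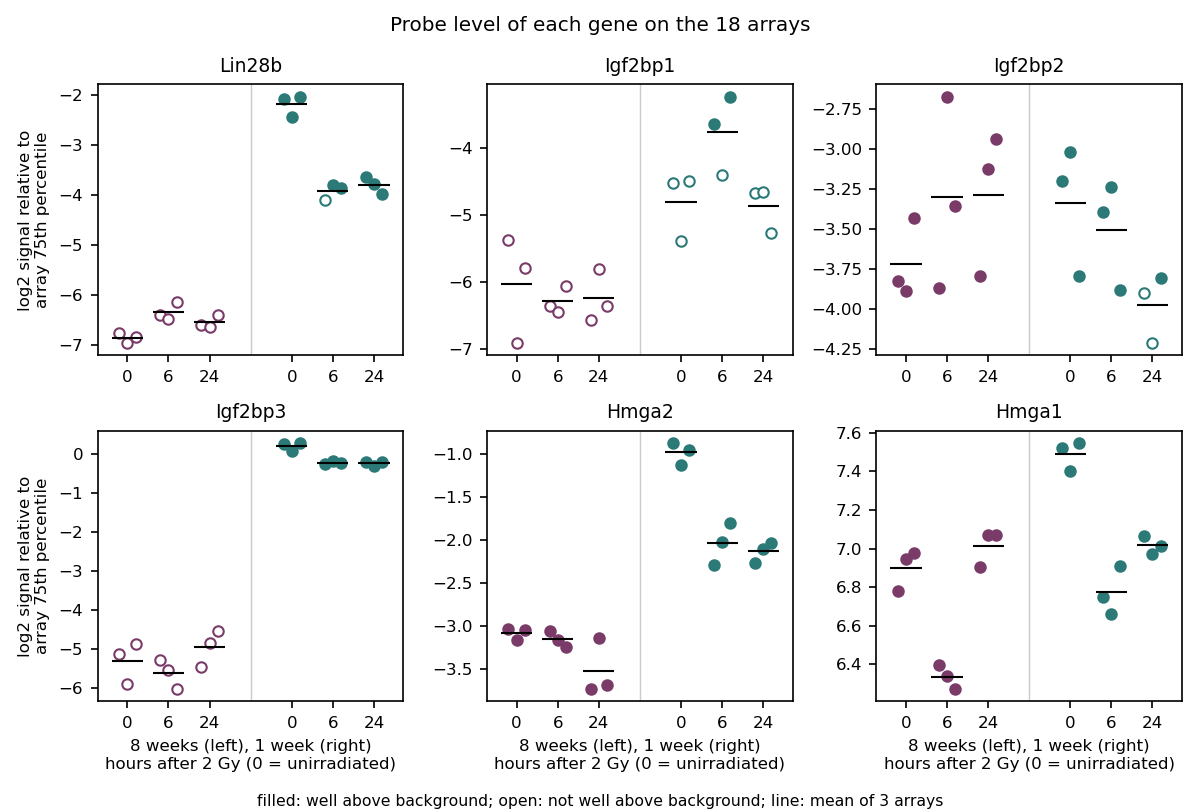
Log2 probe signal relative to the array's 75th percentile (vertical axes, a separate scale per gene) on each of the 18 arrays, by age and hours after 2 Gy, with filled points for arrays well above background, open points for the others and a line at the mean of 3 arrays. Igf2bp3 and Lin28b have only open points at 8 weeks, Hmga2 is lower at 8 weeks in every condition, Hmga1 differs at 0 and 6 h, and the Igf2bp2 points of the 2 ages overlap in controls.

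In marrows taken 6 h after irradiation, 4 of the 5 tested genes were again lower at 8 weeks, where 36% of all tested genes were called lower, 28.2% higher and 64.3% in either direction. At 24 h it was 3 of 5, where 27.7% of all tested genes were called lower, 33.5% higher and 61.3% in either direction. Both counts include Lin28b and Igf2bp3, which passed the detection filter through 1-week groups alone. Of the 3 genes measured at both ages, 2 were lower at 6 h and 1 at 24 h, and 0 were higher. The groups did not overlap for 4 of the 5 genes at 6 h, against 65.5% of all tested genes, and for 4 of the 5 at 24 h, against 70.1%. These 3 age comparisons use different arrays. Arrays of both ages shared a slide in 1 case per comparison, and within that slide the unirradiated difference was -2.09 for Hmga2 and -0.77 for Hmga1. Within the slide shared at 6 h it was -0.78 for Hmga2 and -0.35 for Hmga1, and within that shared at 24 h it was -0.88 for Hmga2. These values have the sign of those over all slides, whereas Igf2bp2 at 6 h was -0.48 within the slide. The 8-week arrays were below background for Igf2bp3 and Lin28b, so only bounds hold within slides. Igf2bp3 was at least 26.9-fold lower in unirradiated 8-week marrow, at least 15.5-fold lower at 6 h and at least 18.6-fold lower at 24 h. Lin28b was at least 5.43-fold lower in unirradiated 8-week marrow and at least 1.73-fold lower at 24 h, and at 6 h both arrays on the slide were below background, so no fold can be given.

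**Figure D2:**
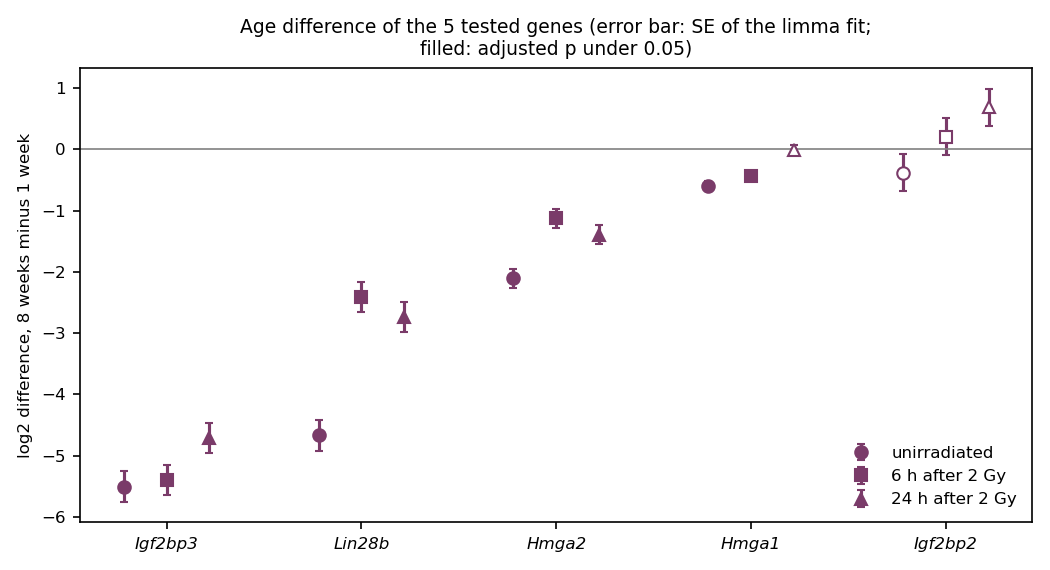
Log2 difference of 8-week minus 1-week marrow (vertical axis) for the 5 tested genes in unirradiated marrow and at 6 h and 24 h after 2 Gy, as fitted values ± SE with filled symbols where adjusted p was under 0.05. Igf2bp3 and Lin28b lie lowest, at -5.51 and -4.67 in unirradiated marrow, though their 8-week signal is below background, so these fitted values are not sizes. Hmga1 at 24 h lies near 0. Igf2bp2 lies at -0.38 in unirradiated marrow, 0.20 at 6 h and 0.69 at 24 h, none of them called.

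**Figure D3:**
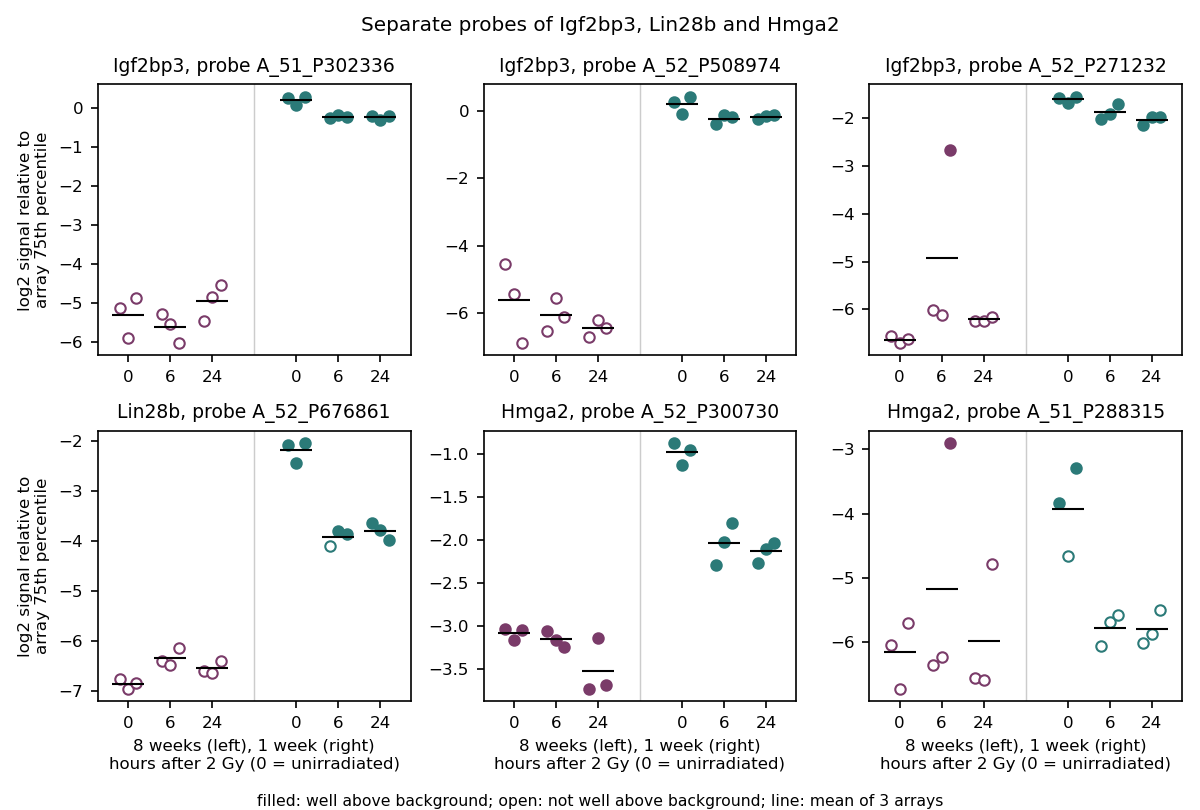
Log2 signal relative to the array's 75th percentile of the 3 Igf2bp3 probes, the detected Lin28b probe and the 2 Hmga2 probes on each array, drawn as in the plot of all 6 genes. All 3 Igf2bp3 probes are high on every 1-week array, and the array 8-week 6 h replicate 3 stands alone on the probes A_52_P271232 (-2.66) and A_51_P288315 (-2.90).

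The cell makeup of the marrow samples also differed with age, and in bulk RNA fewer cells of a type and less RNA per cell cannot be told apart. All 12 stromal fibroblast markers were lower in unirradiated 8-week marrow, with a summed level (log2 of the summed relative signal) of 5.12 to 5.56 at 8 weeks and 7.88 to 8.34 at 1 week. Osteoblast markers were lower for 8 of 9, erythroid markers for 12 of 15 and mitosis genes for 11 of 18. Cartilage markers were lower for 9 of 9 and skeletal muscle markers for 11 of 14, but without 1-week control replicate 2 these were 8 of 9 and 1 of 14. Among irradiated marrows 2 of 9 cartilage markers were lower at 8 weeks at both times, and 0 of 14 muscle markers were lower at 6 h and 6 of 14 at 24 h. That array also enters the shared spread of these comparisons. Without it, 7 of 9 cartilage markers were lower at 6 h and 4 of 9 at 24 h. For muscle it was then 3 of 14 at 6 h and 12 of 14 at 24 h. In unirradiated 8-week marrow, with all arrays, late neutrophil markers were higher for 10 of 11 and early granulocyte markers for 8 of 8. The 13 stem and progenitor markers split into 3 higher and 5 lower. For B-cell precursors, where Lin28b and Igf2bp3 are known to act in the fetus, 6 of 12 markers were higher and 3 lower, with a summed level of 8.53 to 8.65 at 8 weeks and 8.39 to 8.56 at 1 week. The part of these shifts in the results for the 6 genes was not tested.

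Lin28a, the other Lin28 gene, moved opposite to Lin28b. It was -0.70, -0.86 and -0.68 in unirradiated 8-week marrow, against -1.78, -1.80 and -2.22 in unirradiated 1-week marrow, and was higher by 1.18 ± 0.12 (SE, adjusted p = 2.258e-07). It was also higher at 8 weeks at 6 h, by 0.94 (adjusted p = 2.747e-06), and at 24 h, by 1.01 (adjusted p = 1.295e-06). Only 1 Lin28a probe is on the array, and it was well above background on all 18 arrays.

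Lin28a belongs to a list of let-7 processing genes and Lin28 partners, of which 4 rose and 6 fell in unirradiated 8-week marrow among 13 tested. Those that fell include Drosha, the nuclear enzyme that cuts primary microRNAs (-0.59, adjusted p = 1.72e-05), Tarbp2, a Dicer partner (-0.56, adjusted p = 8.078e-06), and Xpo5, which exports precursors from the nucleus (-0.48, adjusted p = 2.385e-06). The list's median was -0.10, near the -0.09 of all tested genes. Of 20 tested let-7 target genes other than the 6, 4 rose and 10 fell, with a median of -0.23. The death receptor Fas rose by 1.45 (adjusted p = 4.371e-11). Those that fell include the imprinted transcription factor Plagl1 (-2.71, adjusted p = 9.387e-08, and -2.27 without 1-week control replicate 2), the ubiquitin-conjugating enzyme Cdc34 (-0.59, adjusted p = 3.625e-06) and the cell cycle factor E2f2 (-0.54, adjusted p = 9.616e-06). So the list held members that moved in each direction.

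Among 16 tested Igf2bp partners and client mRNAs, 2 rose (1 without 1-week control replicate 2) and 7 fell, with a median of -0.15. Igf2, the fetal growth factor whose mRNA named the Igf2bp family, was -4.98, -4.92 and -4.92 in unirradiated 8-week marrow, none well above background, against 2.88, 6.09 and 2.90 in unirradiated 1-week marrow. It was at least 377-fold lower at 8 weeks (adjusted p = 3.483e-09), and the highest value is from the 1-week replicate with muscle and cartilage signal. Without that array the bound was at least 180-fold. The cell surface receptor Cd44 rose by 0.67 (adjusted p = 5.256e-07), while the m6A reader Ythdf1 fell by 0.29 (adjusted p = 0.0001739) and the RNA-binding protein Ybx1 fell by 0.26 (adjusted p = 0.001104).

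Of 12 other high mobility group genes, 2 rose and 5 fell (1 and 4 without 1-week control replicate 2), with a median of -0.12. Hmgb3, known in blood progenitors, fell by 0.86 (adjusted p = 5.911e-06), the nucleosome-binding Hmgn1 fell by 0.42 (adjusted p = 2.565e-05) and the ribosomal gene factor Ubtf fell by 0.24 (adjusted p = 0.002359). Hmgn2, a relative of Hmgn1, rose by 0.27 (adjusted p = 0.0002839). Of 15 fetal and neonatal genes, 4 rose and 8 fell, with a median of -0.53. Those with the smallest adjusted p among the falls were the imprinted gene Mest (-3.15, adjusted p = 3.305e-10, and -2.88 without 1-week control replicate 2) and Igf2, while the B-cell receptor inhibitor Siglecg rose by 1.40 (adjusted p = 9.197e-08). Of 9 adult-type genes, 1 rose and 2 fell. These were Cebpa, the granulocyte factor (1.09, adjusted p = 4.051e-07), Nfix (-0.71, adjusted p = 7.644e-05) and Bcl11a (-0.15, adjusted p = 0.03334).

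**Figure D4:**
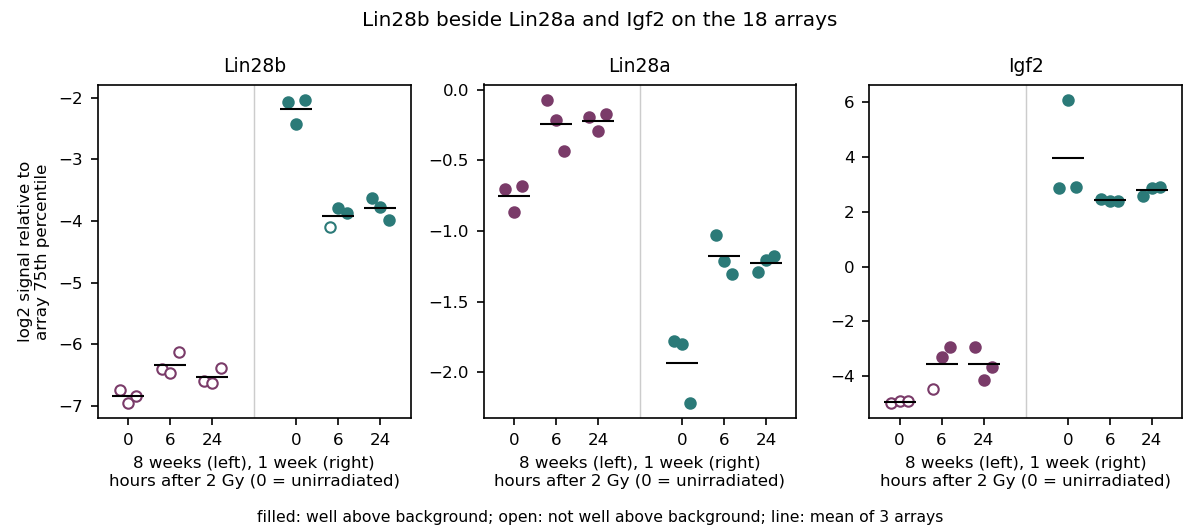
Log2 signal relative to the array's 75th percentile of Lin28b, Lin28a and Igf2 on each array, drawn as in the plot of all 6 genes. Lin28a is higher at 8 weeks than at 1 week in each condition and higher after irradiation at both ages, Lin28b runs the other way at 1 week, and 1 of the 3 unirradiated 1-week arrays stands apart for Igf2 at 6.09.

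After 2 Gy, Lin28b and Hmga2 fell in 1-week marrow at both times, and Hmga1 fell as well. At 6 h 3 of the 5 tested genes were lower in irradiated marrow, where 26.3% of all tested genes were called lower, 25.5% higher and 51.8% in either direction. At 24 h it was again 3 of 5, where 17.6% were called lower, 18.4% higher and 36% in either direction. The groups did not overlap for 4 of the 5 genes at 6 h, against 55.8% of all tested genes, and for 5 of 5 at 24 h, against 48.1%. The 6 h and 24 h comparisons share the 1-week controls, so they are not independent of each other.

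Lin28b was -4.10, -3.79 and -3.86 at 6 h in 1-week marrow, with the first array not well above background, against -2.07, -2.43 and -2.03 in 1-week controls. It was 3.35-fold lower (log2 difference -1.74 ± 0.25 SE, adjusted p = 2.301e-05). The 24 h arrays read -3.63, -3.77 and -3.98, 3.07-fold lower than in controls (-1.62 ± 0.25, adjusted p = 8.558e-05). All 6 irradiated arrays lay below all 3 controls, and the values of the 2 times overlapped. Without 1-week control replicate 2 the differences were -1.87 at 6 h and -1.74 at 24 h. Over 11 alternative ways of processing, the 6 h difference ran from -2.10 to -0.63 (highest adjusted p in limma 0.04892). The 24 h difference ran from -1.63 to -0.76, so the sizes depend on the processing. Within the slide that holds arrays of both groups it was at least 3.81-fold lower at 6 h, the irradiated array there being below background, and within the 2 such slides at 24 h the difference was -1.74 and -1.20.

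Hmga2 was -2.28, -2.02 and -1.80 at 6 h in 1-week marrow, against -0.87, -1.12 and -0.94 in 1-week controls, 2.08-fold lower (-1.06 ± 0.16 SE, adjusted p = 3.185e-05). At 24 h it was -2.26, -2.10 and -2.03, 2.23-fold lower (-1.15 ± 0.16, adjusted p = 2.592e-05). The 6 irradiated arrays all lay below the 3 controls, and without 1-week control replicate 2 the differences were -1.13 at 6 h and -1.23 at 24 h. Over 12 alternative ways of processing, they ran from -1.46 to -0.69 at 6 h and from -1.51 to -0.80 at 24 h. Within the 1 slide that holds both groups the 6 h difference was -1.42, and within the 2 such slides at 24 h it was -1.15 and -1.14.

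Hmga1 was 6.75, 6.66 and 6.91 at 6 h in 1-week marrow, against 7.52, 7.40 and 7.55 in 1-week controls (-0.72 ± 0.07 SE, adjusted p = 6.784e-07). The 24 h arrays read 7.06, 6.97 and 7.01, also lower than controls (-0.47 ± 0.07, adjusted p = 7.763e-05). No irradiated array reached the lowest control at either time. Without 1-week control replicate 2 the differences were -0.76 at 6 h and -0.52 at 24 h. Within shared slides they were -0.77 at 6 h, and -0.58 and -0.34 at 24 h.

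Igf2bp3 was slightly lower after irradiation in 1-week marrow without passing the test over all genes. It was -0.25, -0.19 and -0.24 at 6 h and -0.20, -0.31 and -0.22 at 24 h, against 0.25, 0.08 and 0.28 in controls. The groups did not overlap at either time. The difference was -0.43 ± 0.25 (SE, adjusted p = 0.1592) at 6 h and -0.45 ± 0.25 (adjusted p = 0.1761) at 24 h, and -0.49 and -0.51 without 1-week control replicate 2. With only the arrays of the 2 groups in the fit, the same differences had adjusted p = 0.004677 and 0.005189, so the call depends on which arrays set the spread.

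Igf2bp2 in 1-week marrow was -3.39, -3.24 and -3.88 at 6 h (difference -0.17 ± 0.30 SE, adjusted p = 0.6683) and -3.90, -4.21 and -3.80 at 24 h (-0.64 ± 0.30, adjusted p = 0.1144), against -3.20, -3.02 and -3.79 in controls. Without 1-week control replicate 2 the differences were -0.01 at 6 h and -0.48 at 24 h. At 24 h only 1 of its 3 arrays was well above background.

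In the same 1-week samples, B-cell precursor markers were lower for 11 of 12 at 6 h and 11 of 12 at 24 h, with summed levels of 6.98 to 7.09 at 6 h and 6.54 to 6.67 at 24 h, against 8.39 to 8.56 in controls. Among stem and progenitor markers 5 of 13 were lower and 1 higher at 6 h, and 6 lower and 0 higher at 24 h, with mean levels of -0.08 to 0.02 at 6 h and -0.25 to -0.22 at 24 h, against 0.08 to 0.33 in controls. Late neutrophil markers were higher for 11 of 11 at both times, and erythroid markers for 12 of 15 at 6 h and 8 of 15 at 24 h. Mitosis genes were higher for 15 of 18 and lower for 0 at 6 h, and higher for 1 and lower for 3 at 24 h. Early granulocyte markers were lower for 6 of 8 and higher for 1 at 6 h, and lower for 4 of 8 and higher for 0 at 24 h. The part of these shifts in the falls of Lin28b, Hmga2 and Hmga1 was not tested.

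In 8-week marrow, 1 of the 5 tested genes was lower at 6 h, where 22.1% of all tested genes were called lower, 23.9% higher and 46% in either direction. At 24 h 1 was lower, where 19.5% were called lower, 38.3% higher and 57.8% in either direction. The groups did not overlap for 2 of the 5 genes at 6 h (Hmga1 and, below background, Lin28b), against 55.3% of all tested genes, and for 1 at 24 h (Lin28b, below background), against 69.5%. Hmga1 was 6.40, 6.34 and 6.27 at 6 h, against 6.78, 6.95 and 6.97 in 8-week controls (-0.56 ± 0.07 SE, adjusted p = 1.582e-05). At 24 h it was 6.90, 7.07 and 7.07, overlapping the controls (0.11 ± 0.07, adjusted p = 0.1862). Within the shared slide the differences were -0.51 at 6 h and 0.10 at 24 h.

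Hmga2 in 8-week marrow was -3.06, -3.17 and -3.24 at 6 h, against -3.04, -3.17 and -3.04 in controls (-0.07 ± 0.16 SE, adjusted p = 0.73). Its 24 h arrays read -3.74, -3.14 and -3.69, so 2 arrays lay below the controls and 1 among them (-0.44 ± 0.16, adjusted p = 0.02368). That call was lost when 8-week control replicate 1 or 3 or 24 h replicate 1 or 3 was left out, with differences of -0.41, -0.42, -0.33 and -0.35. Within the shared slide the difference was -0.20 at 6 h and -0.64 at 24 h.

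Igf2bp2 in 8-week marrow was -3.87, -2.67 and -3.36 at 6 h (0.42 ± 0.30 SE, adjusted p = 0.2747) and -3.79, -3.12 and -2.94 at 24 h (0.43 ± 0.30, adjusted p = 0.2325), against -3.83, -3.89 and -3.43 in controls. Lin28b, Igf2bp1 and the chosen Igf2bp3 probe were not well above background on any 8-week array, so no irradiation fold can be given for them at this age. In the same 8-week samples, B-cell precursor markers were lower for 12 of 12 at both times. Late neutrophil markers were higher for 10 of 11 at 6 h and 11 of 11 at 24 h. Early granulocyte markers were higher for 1 of 8 and then 7 of 8. Erythroid markers were higher for 10 of 15 and lower for 1 at 6 h, and higher for 1 and lower for 10 at 24 h. Mitosis genes were higher for 2 of 18 and lower for 1 at 6 h, and lower for 10 at 24 h. Their part in the 8-week results was not tested.

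**Figure D5:**
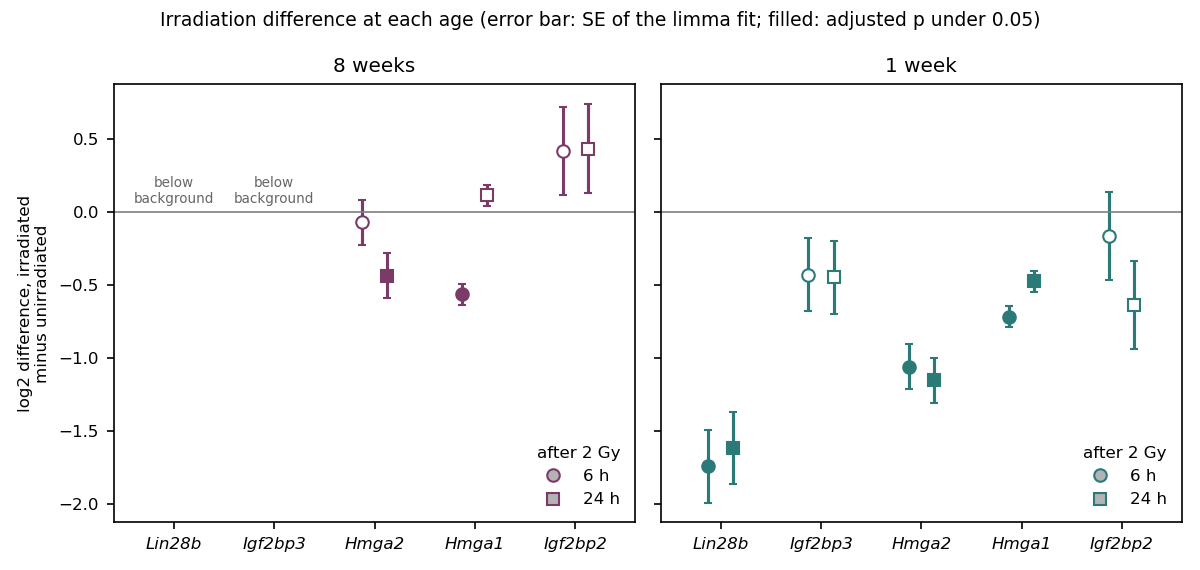
Log2 difference of irradiated minus unirradiated marrow (vertical axis) at 8 weeks and at 1 week for the 5 tested genes, 6 h and 24 h after 2 Gy, as fitted values ± SE with filled symbols where adjusted p was under 0.05. At 1 week Lin28b lies at -1.74 and -1.62 and Hmga2 at -1.06 and -1.15, at 8 weeks Lin28b and Igf2bp3 are below background and not drawn, and Hmga1 at 24 h is below 0 at 1 week only.

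The response to irradiation differed between the ages for Hmga2 and Hmga1 by the test of the difference itself. Of the 3 genes measured at both ages (these and Igf2bp2), 1 had a higher (less negative) response at 8 weeks at 6 h, where 10.5% of all tested genes were called higher, 8.09% lower and 18.6% in either direction. At 24 h it was 2 of 3, where 28.5% were called higher, 13.5% lower and 42.1% in either direction. For Hmga2 the 8-week response minus the 1-week response was 0.99 ± 0.22 at 6 h (SE, adjusted p = 0.006313) and 0.72 ± 0.22 at 24 h (adjusted p = 0.01556). For Hmga1 it was 0.15 ± 0.10 at 6 h (adjusted p = 0.3049) and 0.59 ± 0.10 at 24 h (adjusted p = 0.0002976). For Lin28b the fitted value was 2.26 ± 0.35 at 6 h (adjusted p = 0.0005337) and 1.93 ± 0.35 at 24 h (adjusted p = 0.0004352). Its 8-week values were below background, where a fall could not be seen, so whether its response differed between the ages cannot be told. For Igf2bp2 the difference between the responses was 0.58 ± 0.43 at 6 h (adjusted p = 0.3633) and 1.07 ± 0.43 at 24 h (adjusted p = 0.05468). Without 1-week control replicate 2 the values at 6 h and 24 h were 1.06 and 0.79 for Hmga2, 0.20 and 0.63 for Hmga1, 2.38 and 2.05 for Lin28b, and 0.42 and 0.91 for Igf2bp2. With all arrays, the 24 h response was lower at 8 weeks for 9 of 15 erythroid markers and 8 of 18 mitosis genes. It was higher for 7 of 8 early granulocyte and 10 of 12 stromal markers. Among stem and progenitor markers 5 of 13 were higher and 2 lower, and among B-cell precursor markers 1 of 12 was higher and 3 lower. The part of these shifts in the values for Hmga2 and Hmga1 was not tested.

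Lin28a rose after irradiation at both ages, again opposite to Lin28b at 1 week. In 8-week marrow it rose by 0.51 ± 0.12 at 6 h (SE, adjusted p = 0.002277) and by 0.53 ± 0.12 at 24 h (adjusted p = 0.001006), and in 1-week marrow by 0.75 at 6 h (adjusted p = 5.361e-05) and 0.71 at 24 h (adjusted p = 0.0001737). The difference between ages was not called at 6 h (-0.25, adjusted p = 0.3162) or at 24 h (-0.18, adjusted p = 0.4079).

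In the let-7 processing list, 3 of 13 rose and 5 fell at 6 h in 8-week marrow, and 3 rose and 4 fell at 24 h. Tut4, an enzyme that adds uridines to let-7 precursors, fell by 0.86 at 24 h (adjusted p = 1.299e-08). In 1-week marrow 3 of 13 rose and 2 fell at 6 h, and 2 rose and 4 fell at 24 h. Tut7, the other such enzyme, rose by 0.63 there at 6 h (adjusted p = 2.039e-05). Msi2, an RNA-binding protein of blood stem cells, fell in 8-week marrow by 0.57 at 6 h (adjusted p = 7.505e-05) and by 1.07 at 24 h (adjusted p = 3.448e-08), and in 1-week marrow by 0.70 at 24 h (adjusted p = 1.055e-05).

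Of the 20 let-7 targets, 6 rose and 3 fell at 6 h and 7 rose and 5 fell at 24 h in 8-week marrow, and 4 rose and 4 fell at 6 h and 6 rose and 3 fell at 24 h in 1-week marrow. Fas, also a known p53 target, rose in all 4 comparisons, by 0.71 at 6 h (adjusted p = 8.113e-07) and 0.77 at 24 h (adjusted p = 1.042e-07) in 8-week marrow and by 0.77 at 6 h (adjusted p = 2.011e-07) and 0.72 at 24 h (adjusted p = 5.734e-07) in 1-week marrow. The cyclin Ccnd2 rose in 8-week marrow by 0.78 at 6 h (adjusted p = 1.373e-05) and 1.32 at 24 h (adjusted p = 1.336e-08). E2f2 rose by 0.58 at 6 h in 1-week marrow (adjusted p = 8.371e-06). Mycn, which drives growth in progenitors, fell by 0.96 at 24 h in 1-week marrow (adjusted p = 0.0001663).

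Of the 16 Igf2bp partners and clients, 5 rose and 11 fell at 6 h and 3 rose and 5 fell at 24 h in 1-week marrow. Ybx1 fell by 0.45 (adjusted p = 1.301e-05) and its relative Ybx3 rose by 0.50 (adjusted p = 1.957e-05) at 6 h, and Cd44 rose by 0.54 at 24 h (adjusted p = 2.14e-05). In 8-week marrow 3 rose and 7 fell at 6 h and 4 rose and 4 fell at 24 h. There Cd44 rose at 6 h (0.52, adjusted p = 3.073e-05) and at 24 h (0.50, adjusted p = 1.757e-05), and Mettl3, the enzyme that writes m6A, fell by 0.46 at 6 h (adjusted p = 5.392e-05).

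Of the 12 other high mobility group genes, 2 rose (1 without 1-week control replicate 2) and 6 fell at 6 h and 1 rose and 7 fell at 24 h in 8-week marrow, and 2 rose and 6 fell at 6 h and 0 rose and 6 fell at 24 h in 1-week marrow. Hmgn1 fell with Hmga1 at 6 h at both ages, by 0.62 at 8 weeks (adjusted p = 1.756e-06) and by 0.79 at 1 week (adjusted p = 7.469e-08). Hmgb1, an abundant chromatin protein, fell at 24 h by 0.53 at 8 weeks (adjusted p = 2.172e-05) and by 0.44 at 1 week (adjusted p = 0.0002908).

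Of 15 fetal and neonatal genes, 7 rose and 2 fell at 6 h in 8-week marrow, and 8 rose and 2 fell at 24 h. In 1-week marrow 2 rose and 7 fell at 6 h, and 4 rose and 3 fell at 24 h. Without 1-week control replicate 2, 8 rose and 2 fell at 6 h in 8-week marrow, and 11 rose and 2 fell at 24 h. In 1-week marrow 1 then rose and 5 fell at 6 h, and 3 rose and 3 fell at 24 h. Mest rose by 2.22 at 24 h in 8-week marrow (adjusted p = 3.024e-08) and fell by 0.86 at 6 h in 1-week marrow (adjusted p = 0.0006461). Stromal markers rose for 11 of 12 at 6 h and for 12 of 12 at 24 h in that 8-week marrow, and their part in the rise of Mest was not tested. Of 9 adult-type genes, 2 rose and 1 fell at 6 h and 3 rose and 1 fell at 24 h in 8-week marrow, and 3 rose and 2 fell at 6 h and 2 rose and 2 fell at 24 h in 1-week marrow. The lymphoid enzyme Dntt fell in each, with differences of -1.60 at 6 h (adjusted p = 8.962e-09) and -1.79 at 24 h (adjusted p = 8.353e-10) in 8-week marrow and of -2.005 at 6 h (adjusted p = 6.802e-10) and -3.21 at 24 h (adjusted p = 2.55e-12) in 1-week marrow.

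Across the 18 arrays, Lin28b correlated with Hmga2 at r = 0.955 and with Igf2bp3 at r = 0.947, and Igf2bp3 with Hmga2 at r = 0.889 (Pearson, described without a test). Hmga1 correlated with these at 0.564 to 0.63, and Igf2bp2 with the other tested genes at -0.162 to -0.066. The arrays fall into 2 ages, and the values of Lin28b and Igf2bp3 at 8 weeks are below background, so these figures mainly describe the gap between ages. Among all tested genes, the pattern most like that of Igf2bp3 was that of Mcpt4, a mast cell protease (r = 0.9875), followed by Bmp8a, Kmt5c, Peg12 and Luzp1. For Lin28b the closest were Bmp8a (r = 0.9598), Mcpt4, Peg12, Ptn and Rcan2, so 3 names occur for both. For Hmga2 they were Zfyve21 (r = 0.9499), Cnn3, Sh3gl3, Sbsn and Fastk. For Hmga1 they were Aarsd1 (r = 0.9666), Hilpda, Banf1, Lsm7 and Rcc2, and for Igf2bp2 no gene was as close, with Sde2 at r = 0.7472 ahead of Ctf1, Arhgap10, Rasl12 and Sema6b.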

How the data were processed

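Each array file held spot intensities from Agilent Feature Extraction, which per the file headers had already been background-corrected as processed signals. The submitters' processing notes name version 11.5.1 and the file header names version 9.5.1.1. The authors' deposited value table holds log2 values of the same arrays, and was used as an alternative. Here the processed signals were scaled by each array's 75th percentile over non-control probes and log2-transformed, spots of a probe were averaged, probes were named through RefSeq accessions (24844 of 41174 probes), and the brightest probe stood for a gene. Differences were tested with limma 3.58.1 (R 4.3.3, intensity trend, all 6 groups in the fit), with Benjamini-Hochberg adjustment over 11884 genes and a threshold of 0.05. The scripts were tested on simulated data. The 3 arrays per group limit the precision. The 6 genes, the pathway and marker lists and the tests were chosen with earlier results of these data known. List genes were named by the smallest adjusted p under 0.05 (up to 4 per list for unirradiated age, up to 2 per irradiation comparison, some named again for other comparisons). Like patterns were named by the 5 highest Pearson correlations among tested genes, leaving out the 6 genes and clone or locus names. The normexp alternative used the median spot signal with an offset of 50, and its background-subtracted values were limited at the low end, a step added after seeing the data.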

Additional observations from a re-analysis of the deposited data

Results flagged for a closer look

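The response to irradiation differed between the ages, by the test of the difference itself in limma, for Hmga2 and Hmga1. For Hmga2 the 8-week response minus the 1-week response was 0.99 at 6 h (adjusted p = 0.006313) and 0.72 at 24 h (adjusted p = 0.01556). For Hmga1 it was 0.59 at 24 h (adjusted p = 0.0002976). Lin28b also passed this test, at 2.26 at 6 h (adjusted p = 0.0005337) and 1.93 at 24 h (adjusted p = 0.0004352). It was below background on all 9 8-week arrays, where a fall could not appear. Its values therefore cannot show whether its response differed between the ages.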

How the results depend on the processing

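Apart from leaving out arrays, 505 of 531 values of the 5 tested genes, over 9 comparisons and their alternatives, kept their direction and their side of the threshold, 18 gained a call, 7 lost it and 1 reversed. With 1 array left out at a time it was 794 of 810, with 12 gained and 4 lost. The alternative that tests genes well above background on all 18 arrays leaves out Lin28b, Igf2bp2 and Igf2bp3 and gives no value for them. With slide as a block, the count of genes whose 6 h response differed between ages was 1370, against 2210 without it. The cause was not tested for any change below.

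The 8-week responses of Lin28b are below background, and its 6 h difference of 0.51 (adjusted p = 0.09896) was called at 0.51 in the authors' values, without the filter and without the intensity trend, at 0.64 with the mean of all probes and at 0.30 with normexp. Its 24 h difference was called at 0.38 with normexp. Hmga2 lost its call in 8-week marrow at 24 h with the mean of probes (-0.13), normexp (-0.060), only the groups compared (-0.44), quantile scaling (-0.35) and slide as a block (-0.41). With the mean of probes Hmga2 also lost its age calls at 6 h (-0.26) and 24 h (-0.79). Igf2bp3 gained calls with normexp in 1-week marrow at 6 h (-0.34) and 24 h (-0.36), with only the groups compared at 6 h (-0.43) and 24 h (-0.45), and with normexp in 8-week marrow at 24 h (0.26) and for the 24 h difference between ages (0.63). On the Igf2bp3 probe A_52_P271232 the 8-week 6 h difference reversed to 1.69, through 1 array. Igf2bp2 gained calls with normexp in 8-week marrow at 6 h (0.42) and 24 h (0.40), with only the groups compared for age at 24 h (0.69) and for the 24 h difference between ages (1.07), and with quantile scaling for the same (0.82 and 1.097).

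With arrays left out, Igf2bp2 gained its age call at 24 h (range 0.52 to 0.94) without 1-week control replicate 3, 8-week 24 h replicate 1 or 8-week 6 h replicate 1 or 2. Its 24 h difference between ages (0.90 to 1.32) was called without the same arrays or 8-week control replicate 3. Igf2bp3 was called in 8-week marrow at 6 h (-0.62 to -0.10) without 8-week control replicate 2, and its 24 h difference between ages (0.49 to 1.05) without 8-week control replicate 3 or 24 h replicate 1. Hmga2 in 8-week marrow at 24 h (-0.63 to -0.33) lost its call without 4 arrays. Replicate numbers were not taken as pairs, since over 45 pairs of groups and numbers the correlations of same-numbered arrays ran from -0.267 to 0.319, with 9 over 0.1 and 9 of 18 arrays closest to one of their own number. With the replicate block no call of the 5 genes changed, and the age count in unirradiated marrow was 7699, against 7711 without it.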

Other observations

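Outside the 6 genes and clone or locus names, the genes whose pattern over the 18 arrays was closest to that of Igf2bp3 shared its age gap. Mcpt4 averaged -6.62 in unirradiated 8-week marrow and -0.89 in unirradiated 1-week marrow, and Bmp8a, which encodes a bone morphogenetic protein, averaged -4.92 at 8 weeks and -2.42 at 1 week. The pattern closest to Hmga1, that of Aarsd1, averaged 1.59 at 8 weeks and 2.23 at 1 week. These genes were selected for their likeness, so the values are a description. On the array 8-week 6 h replicate 3, the probes A_52_P271232 of Igf2bp3 and A_51_P288315 of Hmga2 read -2.66 and -2.90, while neither was well above background on any other 8-week array.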
